A study of Mus musculus with 48 samples.

Results

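The 41 cell cycle genes followed here are 23 genes of the G2 and M phases, 11 genes of S phase and 7 genes of G1 and the G1/S step. They were chosen by name, as a list of familiar proliferation markers and cell cycle regulators, and not by a threshold on measured values. All 41 were rows of the count table, which holds 16510 genes. The 23 G2/M genes were *Mki67*, *Top2a*, *Ube2c*, *Birc5*, *Cdk1*, *Ccnb1*, *Ccnb2*, *Ccna2*, *Cenpa*, *Cenpe*, *Cenpf*, *Aurka*, *Aurkb*, *Bub1*, *Bub1b*, *Plk1*, *Tpx2*, *Kif11*, *Kif23*, *Nusap1*, *Prc1*, *Hmmr* and *Cdc20*. The S phase genes were *Mcm2* to *Mcm7*, *Pcna*, *Rrm1*, *Rrm2*, *Tyms* and *Gins2*, and the G1 and G1/S genes were *Ccnd1*, *Ccnd2*, *Ccne1*, *Ccne2*, *Cdk4*, *Cdk6* and *E2f1*.

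The data are single cell transcriptomes of the mouse hypothalamus at E18.5, on a mixed B6:129S1 background. *Eed-cKO* embryos carried *Eed fl/fl* and *Sox1-Cre/+*, so that *Eed*, a core subunit of the Polycomb repressive complex that places H3K27me3, was deleted by a Cre expressed in the early neural tube. Control embryos carried the same floxed alleles without Cre. There were 6 control embryos in 22 libraries and 9 *Eed-cKO* embryos in 26 libraries, and the embryo was the replicate throughout. The control embryos came from 4 litters and the *Eed-cKO* embryos from 6 others, as read from the library names, and no litter held both genotypes, so litter and genotype cannot be told apart.

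A dividing cell passes from G1, where cyclin D with Cdk4 or Cdk6 inactivates the retinoblastoma proteins and frees E2F factors, into S phase, where the MCM helicase, PCNA and the nucleotide-supplying enzymes copy the genome, and then through G2 into mitosis, which cyclin B with Cdk1 drives and the anaphase-promoting complex ends. Most mRNAs of the G2/M group accumulate late in the cycle and are nearly silent in cells that have left it, whereas several S phase genes also serve DNA repair and are read at a low level in resting cells. At the end of gestation most hypothalamic neurons have left the cycle, and progenitors, oligodendrocyte precursors, young astrocytes and vascular cells are the populations known still to divide.

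The table held 14121 cells, the smallest with 601 unique molecular identifiers (UMIs, which count captured mRNA molecules), and the embryos summed to 5363119 to 7487417 UMIs in controls and 658175 to 6299181 in *Eed-cKO*. Of the cell barcodes, 101 were seen in more than 1 library (203 cells). Cells were grouped after removing all cell cycle genes of the lists from the clustering, and the clusters took names from marker genes, which gave 11444 neurons, 435 astrocyte-like cells, 371 cells in 5 clusters with progenitor markers, 109 oligodendrocyte precursor-like cells and 820 non-neural cells (endothelial, vascular leptomeningeal, pericyte and microglial). The remaining neural cells were ependymal-like (333), tanycyte-like (173), in a cluster led by *Ttr*, *Cga* and *Tshb* that is given no type here (61, all in *Eed-cKO*) or unnamed (375, 1.07% and 4.30% of the cells by genotype, control first), and all cells but the non-neural ones are called All-Hypo (13301 cells). The progenitor pool held clusters 6, 8, 11, 14 and 15, of which cluster 8 had more precursor markers (*Olig1*, *Olig2*) than progenitor markers (*Egfr*) among its 10 leading genes, so results are also given without it. Cluster 15 (1 control and 30 *Eed-cKO* cells) was led by *Crybb1* and *Gfap*, with *S100b* and no progenitor marker among its 10 leading genes, and results are likewise given without it. *Eed* mRNA, which checks the labels, lay at 28.6 to 33.03 CPM (counts scaled to a common total, edgeR's counts per 1e6) in All-Hypo cells of the 6 control embryos and at 19.5 to 27.9 in the 9 *Eed-cKO* embryos, with no overlap.

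The first question was whether cell cycle genes were expressed at another level in the hypothalamus as a whole when *Eed* was deleted in neural cells. In All-Hypo cells, summed per embryo and tested with edgeR's quasi-likelihood test over all genes with Benjamini-Hochberg adjustment, 32 of the 38 members tested were higher in *Eed-cKO* and 0 were lower (0 at an unadjusted p under 0.05, and 0 with DESeq2). Of all 12558 genes tested, 15.3% were higher. The 32 comprised 20 of 21 G2/M genes, 8 of 11 S phase genes and 4 of 6 G1 and G1/S genes, and *Aurka*, *Bub1* and *Cdk6* fell under the filter on low counts. That filter took a median over the embryos of both genotypes, most of them *Eed-cKO*. Genes low in controls could thus pass it through *Eed-cKO* embryos alone, which favours genes that rose in these counts. The median log2 fold change was 1.36 over the G2/M genes tested, 0.44 over the S phase genes and 0.81 over the G1 and G1/S genes, against 0.0053 over all genes tested.

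Summed over the 23 G2/M genes, the level in All-Hypo cells was 66.9 CPM at the lowest, 101 at the median and 176 at the highest among control embryos, and 109, 215 and 507 CPM among *Eed-cKO* embryos. Over the S phase genes the corresponding values were 181, 194 and 210 CPM in controls and 191, 263 and 327 CPM in *Eed-cKO*. In both sums 7 of the 9 *Eed-cKO* embryos lay above every control. The G1 and G1/S sum ran from 210 to 264 CPM in controls, with a median of 236, and from 471 to 700 CPM in *Eed-cKO*, with a median of 596. Here the genotypes did not overlap. These sums are given as a description, without a test.

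**Figure D1:**
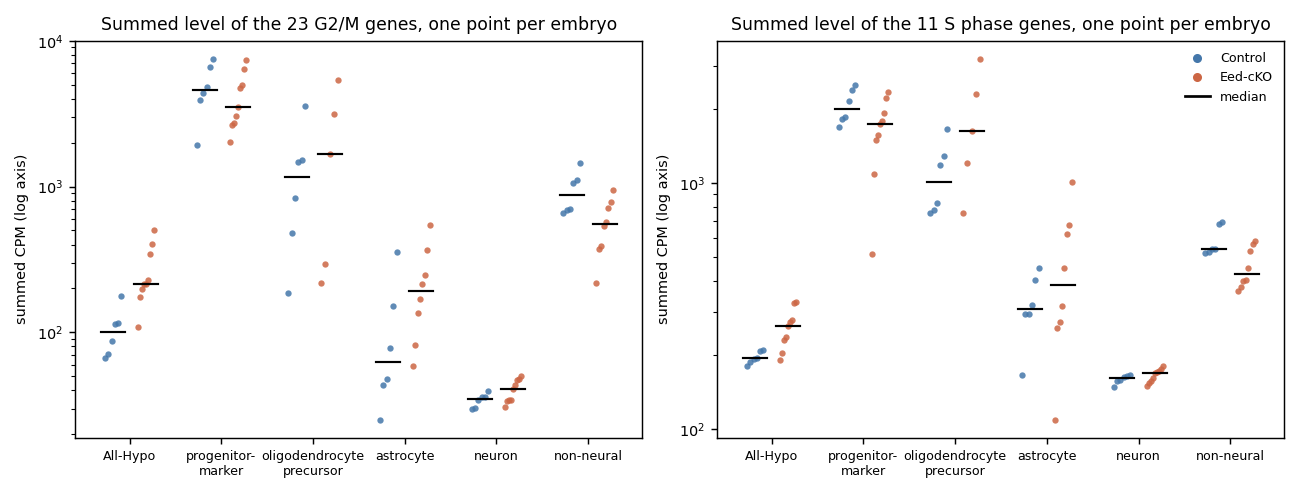
Summed level (CPM, log axis) of the 23 G2/M genes, left, and the 11 S phase genes, right, in each embryo, by cell class and genotype, where points are embryos and bars are medians. In All-Hypo cells the G2/M median is 101 CPM in controls and 215 CPM in *Eed-cKO*, whereas in the progenitor-marker clusters the G2/M sums cover much the same range (1940 to 7526 against 2026 to 7426 CPM).

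Among the G2/M genes, *Mki67*, which encodes the Ki-67 antigen of dividing cells (chr7:135689784-135716361, minus strand), was at 1.10, 2.59 and 3.34 CPM in All-Hypo cells of control embryos (lowest, median, highest) and at 1.63, 5.52 and 15.2 CPM in *Eed-cKO*. Its log2 fold change was 1.605 (SE 0.38, edgeR adjusted p = 0.00304), with 7 of 9 *Eed-cKO* embryos above every control. *Top2a*, the topoisomerase that untangles sister chromatids (chr11:98992943-99024189, minus strand), was at 5.71, 9.59 and 15.7 CPM in controls and at 8.58, 27.7 and 59.5 CPM in *Eed-cKO* (log2 fold change 1.63, SE 0.31, adjusted p = 0.000428). The 2 genotypes overlapped only at the single *Eed-cKO* embryo that did not exceed the highest control.

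The kinase and cyclins of mitotic entry rose as well. *Cdk1*, the mitotic kinase, was at 2.13, 4.67 and 11.6 CPM in controls and 6.29, 14.5 and 36.1 CPM in *Eed-cKO* (log2 fold change 1.84, SE 0.34, adjusted p = 0.00037). *Ccnb1*, its cyclin partner, was at 2.37, 3.73 and 7.07 CPM against 4.72, 10.7 and 24.8 CPM (1.76, SE 0.31, adjusted p = 0.000212). *Ccna2*, the cyclin that serves both S phase and G2, was at 5.04, 7.83 and 10.4 CPM against 9.47, 16.8 and 32.2 CPM (1.23, adjusted p = 0.000597). In these 3 genes 6, 7 and 8 of the 9 *Eed-cKO* embryos stood above all controls, and *Ccnb2* rose by 1.26 on the log2 scale (adjusted p = 0.00219).

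Genes of the chromosomal passenger complex, which corrects faulty chromosome attachment, rose likewise. *Aurkb*, its kinase, went from a median of 1.98 to 7.26 CPM (log2 fold change 2.06, SE 0.42, adjusted p = 0.000901), the largest change among the G2/M genes tested, and *Birc5* (survivin) from 5.43 to 11.9 CPM (1.27, adjusted p = 0.00115). *Plk1*, a kinase of centrosome maturation, rose from a median of 1.99 to 7.43 CPM (1.67, adjusted p = 0.00164), although 1 *Eed-cKO* embryo had none. *Nusap1* and *Hmmr*, which bind spindle microtubules, rose by 1.89 (adjusted p = 0.000703) and 1.74 on the log2 scale. The spindle genes *Tpx2*, *Kif11*, *Prc1* and *Kif23* rose by 0.98 to 1.19. The genes of the exit from mitosis, *Ube2c* and *Cdc20*, which serve the anaphase-promoting complex, rose by 1.63 (adjusted p = 0.00196) and 1.36. Only *Cenpe*, a kinetochore motor, missed the threshold among the G2/M genes tested, at 1.95, 3.04 and 4.32 CPM in controls and 2.76, 3.68 and 8.04 CPM in *Eed-cKO* (0.60, SE 0.27, adjusted p = 0.103).

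The S phase genes had the lowest median fold change of the 3 sets. *Mcm2*, a subunit of the replicative helicase, was at 5.01, 6.25 and 6.85 CPM in controls and 5.42, 10.9 and 18.99 CPM in *Eed-cKO* (log2 fold change 0.99, SE 0.21, adjusted p = 0.0011). *Mcm3*, another subunit, was at 1.94, 3.23 and 4.18 CPM against 2.04, 6.45 and 14.1 CPM (1.23, SE 0.29, adjusted p = 0.00327). *Gins2*, which activates the helicase, rose by 0.83 and *Mcm5* by 0.71 (adjusted p = 0.0153 and 0.015).

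*Pcna*, the sliding clamp of DNA polymerase (chr2:132249162-132253314, minus strand), was at 36.9, 44.8 and 56.0 CPM in controls and 44.1, 57.0 and 72.3 CPM in *Eed-cKO*, a log2 fold change of 0.29 (SE 0.11, adjusted p = 0.0443). *Mcm7*, *Mcm4* and *Rrm1* rose by 0.44, 0.48 and 0.34, whereas *Mcm6* (0.13, adjusted p = 0.40), *Rrm2* (0.30) and *Tyms* (0.28) did not pass the test. The calls of *Pcna* and *Mcm4* were each lost in 11 of the 15 fits that left out a single embryo, those of *Rrm1* and *Cdk4* in 6 and that of *Kif23* in 3, with adjusted p of up to 0.149, 0.108, 0.0823, 0.0702 and 0.0591. *Aurkb* and *E2f1* passed the filter on level in only 8 and 7 of these 15 fits, and kept their calls there. *Mcm7* (chr5:138164583-138172422, minus strand) holds 3 microRNA genes on its own strand and meets *Cops6* and *Ap4m1* on the other, and whether the counting used strand is not given in the sources used here.

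The D-type cyclins, which carry growth signals to Cdk4 and Cdk6, had the largest fold changes of the 38 members tested. *Ccnd1*, cyclin D1 (chr7:144929931-144939925, minus strand, overlapped on the other strand by *LTO1*), was at 12.9, 16.8 and 23.3 CPM in All-Hypo cells of controls and at 108, 152 and 193 CPM in *Eed-cKO*, an 8.47-fold difference (log2 fold change 3.08, SE 0.14, adjusted p = 9.92e-13). *Ccnd2*, cyclin D2 (chr6:127125162-127152193, minus strand), was at 13.5, 24.9 and 34.7 CPM against 134, 209 and 242 CPM, or 7.67-fold (2.94, SE 0.18, adjusted p = 1.17e-10). In neither gene did any embryo of one genotype reach the range of the other. *Cdk4*, their kinase (chr10:127063534-127067920, plus strand), was at 157, 175 and 196 CPM against 145, 213 and 276 CPM (0.34, SE 0.11, adjusted p = 0.0257), and *E2f1*, an activator of S phase genes, rose by 1.29 (adjusted p = 0.00151). The E-type cyclins, partners of Cdk2 at the G1/S step, did not pass the test (*Ccne1* 0.12, adjusted p = 0.772; *Ccne2* −0.24, adjusted p = 0.401), and of *Cdk6* 4 UMIs were counted in controls and 26 in *Eed-cKO*.

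**Figure D2:**
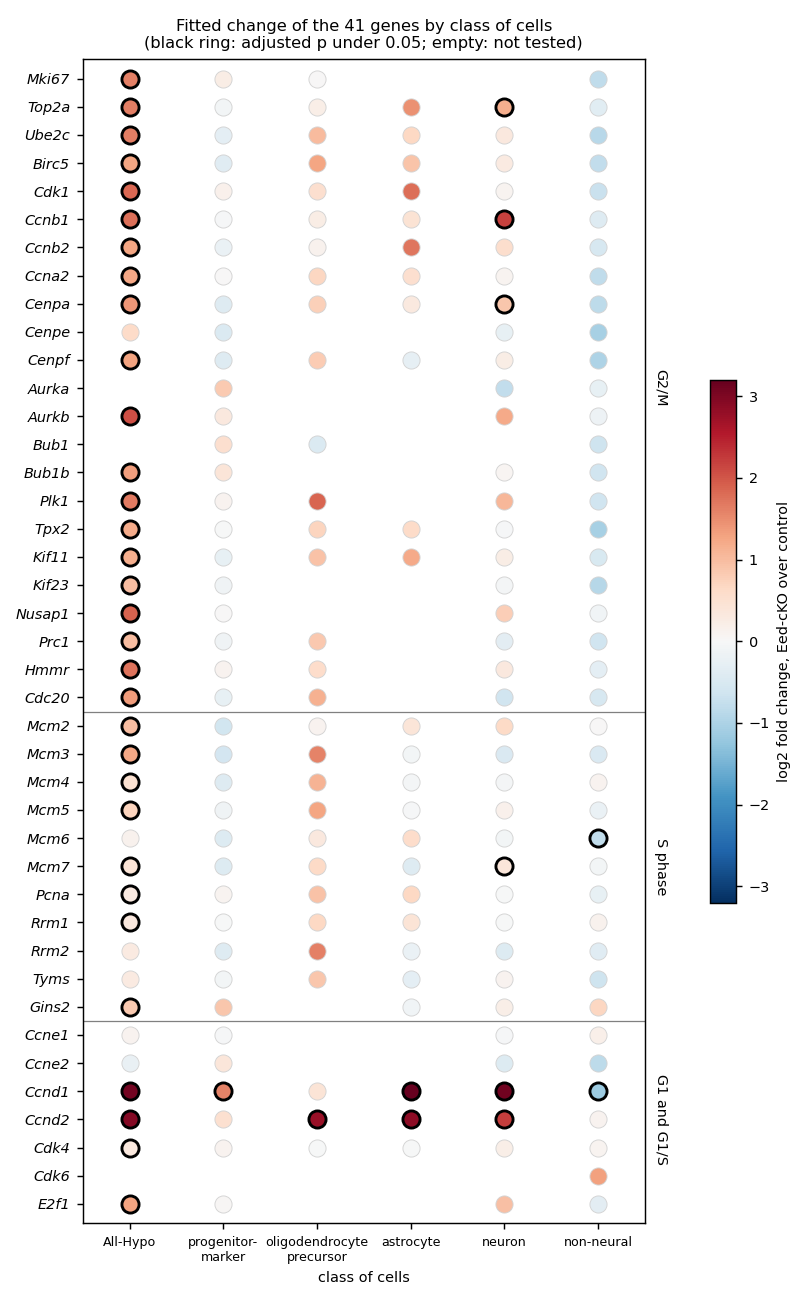
Fitted log2 fold change (*Eed-cKO* over control, edgeR) of each of the 41 genes as a coloured circle, by gene (rows, in the 3 sets) and cell class (columns), where a black ring marks adjusted p under 0.05 and an empty place a gene that was not tested. In All-Hypo cells 32 circles are ringed and red, in the progenitor-marker clusters only that of *Ccnd1*, and in non-neural cells the 2 ringed circles are blue.

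As members that moved together, the G2/M and S phase genes were also compared by promoter sequence. RefSeq (GRCm38.p6) gave a promoter, 250 bases before to 50 after the start, for 33 of the 41. The cell cycle homology region (CHR, TTTGAA or TTCGAA on either strand), the element through which the DREAM and MuvB complexes act on G2/M genes, was found in 80% of the 20 G2/M promoters, 22.2% of the 9 S phase promoters and 21.7% of the 27025 genes with a promoter. The E2F element (TTTGGCGC, TTTCCCGC, TTTGCCGC or TTTCGCGC) was found in 5%, 44.4% and 2.6%, and the CCAAT box (CCAAT) in 90%, 88.9% and 41.1%. None of these strings contains another. The 4 promoters of G1 and G1/S genes held none of them. A match is a description of the letters and not evidence of binding. The promoters of the 2 G2/M and 2 S phase genes of lowest adjusted p in All-Hypo cells are shown as examples of the arrangement, 5′ to 3′ on the minus strand and upstream of the annotated gene only, with the motifs in capitals.
*Ccnb1*, chr13:100786571-100786736: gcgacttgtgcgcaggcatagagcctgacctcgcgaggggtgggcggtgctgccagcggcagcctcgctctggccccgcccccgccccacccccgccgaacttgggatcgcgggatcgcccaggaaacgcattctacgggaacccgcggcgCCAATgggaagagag
*Cdk1*, chr10:69352939-69353162: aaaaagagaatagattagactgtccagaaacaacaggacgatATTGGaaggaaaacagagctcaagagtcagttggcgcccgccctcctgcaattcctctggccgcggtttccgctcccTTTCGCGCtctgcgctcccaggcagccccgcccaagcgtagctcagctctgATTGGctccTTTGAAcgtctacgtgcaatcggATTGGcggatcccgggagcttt
*Mcm2*, chr6:88898781-88899030: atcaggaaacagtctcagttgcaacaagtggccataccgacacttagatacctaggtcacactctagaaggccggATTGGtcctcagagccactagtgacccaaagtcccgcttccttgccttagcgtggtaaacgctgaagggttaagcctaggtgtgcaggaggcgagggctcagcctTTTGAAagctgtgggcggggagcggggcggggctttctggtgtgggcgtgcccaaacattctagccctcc
*Mcm3*, chr1:20820313-20820562: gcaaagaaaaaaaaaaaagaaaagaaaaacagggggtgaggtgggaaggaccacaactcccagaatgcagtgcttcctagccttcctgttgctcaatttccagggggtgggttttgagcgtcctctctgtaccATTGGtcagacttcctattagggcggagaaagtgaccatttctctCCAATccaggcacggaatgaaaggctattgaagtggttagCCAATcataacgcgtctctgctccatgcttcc
In *Cdk1* the capitals mark an E2F element, a CHR and CCAAT boxes, in *Ccnb1* a CCAAT box, in *Mcm2* a CHR and a CCAAT box, and in *Mcm3* CCAAT boxes. Beyond the stretches shown, the scanned window of *Mcm3* also held 2 E2F elements, 19 and 38 bases after the start. That of *Ccnb1* held a CCAAT box 67 bases before the RefSeq start, and that of *Cdk1* a CHR 15 bases before it.

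The next question was which cells held these transcripts. Of the 5242 G2/M UMIs of control embryos, 32.7% lay in the progenitor-marker clusters, which were 1.197% of control cells. In *Eed-cKO* it was 49.6% of 11074 G2/M UMIs in 4.11% of the cells. Neurons held 22.47% and 9.53% of the G2/M UMIs, endothelial cells 17.99% and 3.23%, ependymal-like cells 5.48% and 10.4%, and unnamed clusters 3.59% and 10.8%. Of the S phase UMIs, neurons held 67.2% in controls and 44.0% in *Eed-cKO*, below their share of the cells (87.1% and 74.8%). The progenitor-marker clusters held 8.61% and 19.5%. Of the 201 cells with an *Mki67* UMI, 84 (41.8%) were in the progenitor-marker clusters.

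**Figure D3:**
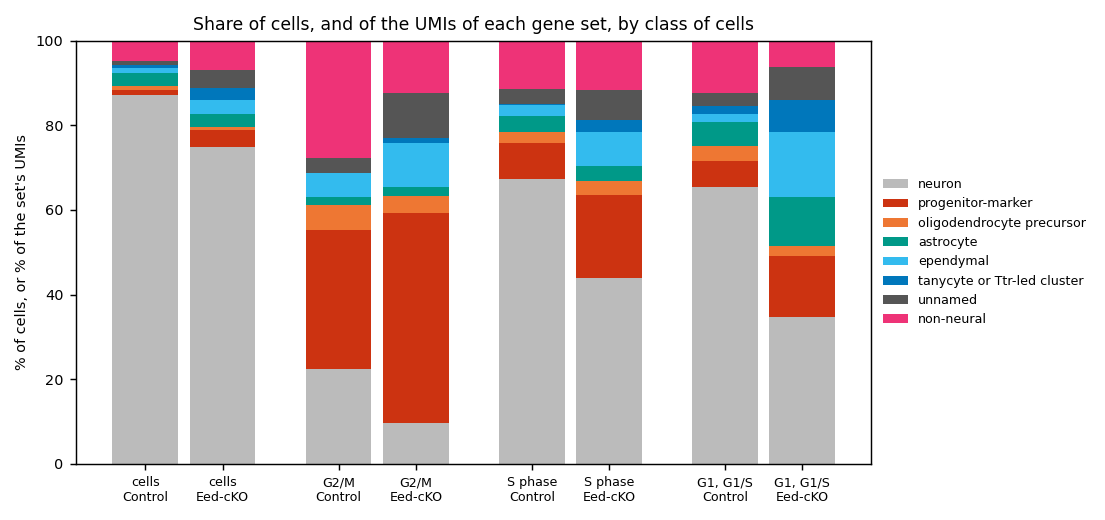
Stacked bars of the share (%) of cells, and of all UMIs of the G2/M, S phase and G1 with G1/S genes, that each cell class held, with the embryos of each genotype pooled. The progenitor-marker clusters held 32.7% of control and 49.6% of *Eed-cKO* G2/M UMIs, and neurons held the largest share of S phase UMIs in both genotypes.

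The progenitor-marker clusters were themselves a larger share of All-Hypo cells in *Eed-cKO*, 2.46%, 4.10% and 6.46% (lowest, median, highest embryo) against 0.875%, 1.29% and 1.75%, with no overlap. Without cluster 15 the *Eed-cKO* shares were 2.24%, 3.85% and 6.06%, and they still lay above those of all controls. Without them, 19 of the 32 members tested in All-Hypo cells rose (14 of 16 G2/M, 3 of 11 S phase and 2 of 5 G1 and G1/S genes), where 13.4% of all genes rose. Without the unnamed clusters as well, 16 of 30 rose (11 of 14, 3 of 11 and 2 of 5), where 12.3% of all genes rose. *Top2a* then differed by 1.49 on the log2 scale (edgeR adjusted p = 0.0155), *Ccnd1* of 3.09 and *Ccnd2* of 3.23. The unnamed cells were unevenly spread, at median depths of 6754 UMIs in controls and 6888.5 in *Eed-cKO* (4764 and 4424 over All-Hypo cells), with 28% of them in *Eed-cKO* embryo 5, 22.4% in *Eed-cKO* embryo 9 and 19.2% in *Eed-cKO* embryo 4. A further 13.6% (51 cells, most of the control ones) were in control embryo 5.

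Within the progenitor-marker clusters (6 control and 9 *Eed-cKO* embryos), 1 of the 40 members tested rose, where 0.939% of all 10220 genes rose, and 0 fell (1 lower at an unadjusted p under 0.05, and 0 with DESeq2). That member was *Ccnd1*, at 54.6, 273 and 480 CPM in controls and 504, 880 and 1213 CPM in *Eed-cKO* (log2 fold change 1.58, SE 0.22, edgeR adjusted p = 1.48e-07). Every *Eed-cKO* embryo exceeded every control. *Ccnd2* was at 365, 525.8 and 1374 CPM against 398, 949 and 1314 CPM (0.51, adjusted p = 0.27), and without control embryo 2, which had the highest level, it passed the test (0.91, adjusted p = 0.0115). *Cdk4* was at 503, 668 and 939 CPM against 443, 732 and 942 CPM.

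No G2/M or S phase member passed the test in these clusters. *Mki67* was at 54.6, 109 and 220 CPM in controls and 31.6, 91.9 and 274 CPM in *Eed-cKO* (log2 fold change 0.23, SE 0.32, edgeR adjusted p = 0.88), and *Top2a* at 209, 620 and 920 CPM against 239, 581.8 and 949 CPM (−0.08, adjusted p = 0.937). *Pcna* was at 192, 303 and 385 CPM against 59.3, 324 and 375 CPM (0.10, adjusted p = 0.936). *Mcm2* (186 against 96.4 CPM at the median) and *Rrm2*, a ribonucleotide reductase subunit (349 against 260 CPM), had fold changes of −0.62 and −0.42 on the log2 scale that did not pass the test (adjusted p = 0.397 and 0.553). The median log2 fold change was −0.05 over G2/M genes, −0.40 over S phase genes and 0.128 over all genes, the last being 0.024 when scaled by library size alone.

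Summed G2/M levels in the progenitor-marker clusters were 1940, 4605 and 7526 CPM in controls and 2026, 3528 and 7426 CPM in *Eed-cKO*. Summed S phase levels were 1686, 2003 and 2503 CPM against 514, 1741 and 2352 CPM, with 4 *Eed-cKO* embryos below every control. Cells with UMIs of at least 5 G2/M genes were 26.7%, 38.1% and 60% of these clusters in controls and 9.09%, 26.5% and 48.8% in *Eed-cKO*, where 5 of 9 embryos lay below every control. Cells with at least 2 G2/M and 2 S phase genes were 27.8%, 51.7% and 53.8% against 5.88%, 29.4% and 51.2%, with 3 *Eed-cKO* embryos below all controls. Both shares were thus lower at the median in *Eed-cKO*, with ranges that overlapped, and they are given without a test. They were not computed without clusters 8 and 15. By cluster, the pooled share with at least 2 G2/M genes was lower in *Eed-cKO* in cluster 8 (65.8% and 42.3%) and cluster 14 (12.5% and 8%). It was higher in cluster 6 (0% and 13.1%) and cluster 11 (93.75% and 100%), and cluster 15 held 1 control cell. The lower shares of the pool may therefore not hold without cluster 8. Without cluster 8 the G2/M sums were 2032, 4417 and 7002 CPM against 2371, 4089 and 8090 CPM, *Ccnd1* was again the only member of 40 that passed (1.33, edgeR adjusted p = 6.72e-05), and *Top2a* stood at 0.47 on the log2 scale (adjusted p = 0.508). The S phase sums without cluster 8 were 453, 1573 and 2020 CPM against 482, 1772 and 2300 CPM, higher at the median in *Eed-cKO*. Of the *Eed-cKO* embryos, 3 then lay above every control and 0 below every control. Without cluster 15, which left 8 *Eed-cKO* embryos with 10 cells, *Ccnd1* was once more the 1 member of 40 to pass (1.61, edgeR adjusted p = 9.47e-07). The G2/M sums were then 1992, 4550 and 7459 CPM against 2844, 4200 and 8095 CPM, and the median log2 fold change over G2/M genes turned to 0.13. The S phase sums without cluster 15 were 1662, 2053 and 2570 CPM against 525, 1782 and 2344 CPM, with 3 *Eed-cKO* embryos below every control.

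Within the progenitor pool, cells with G2/M transcripts were concentrated in particular clusters. Cluster 11 (16 control and 60 *Eed-cKO* cells), led by *Ccnb1*, *Nusap1*, *Top2a* and *Mki67* although these genes had been kept out of the clustering, held pooled G2/M levels of 10204 CPM in controls and 10618 in *Eed-cKO*, and 93.75% and 100% of its cells had UMIs of at least 2 G2/M genes. In cluster 8 (38 and 71 cells) the levels were 5435 and 4563 CPM and the shares 65.8% and 42.3%. Cluster 6 (23 and 99 cells) stood at 78.5 and 534 CPM, with 13.1% of its *Eed-cKO* cells, and clusters 14 and 15 at no more than 150 CPM. Outside the pool, 15.6% of 77 control and 44.0% of 298 *Eed-cKO* unnamed cells had UMIs of at least 2 G2/M genes. Of those control cells, 51 came from control embryo 5 alone. At least 5 such genes were found in 11.7% and 14.1% of the unnamed cells. The ependymal-like cluster 7 (53 and 62 cells) stood at 399 and 3008 CPM, with shares of 9.43% and 24.2% for at least 2 genes. Cells, not embryos, are counted here, so these values carry no test between genotypes.

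The share of cells with an *Mki67* UMI was 0.313%, 0.736% and 1.05% of All-Hypo cells in control embryos and 0.586%, 1.34% and 3.21% in *Eed-cKO*. The difference of the mean shares was 0.894 percentage points (exact two-sided permutation test over embryos, p = 0.0104, 0.104 after adjustment over 10 tests, smallest p possible 0.0003996), with 6 of 9 *Eed-cKO* embryos above every control. When cells were thinned to 2000 UMIs, which leaves out shallower cells, the difference was 0.735 points (exact permutation p = 0.0036, adjusted 0.036). When at least 2 UMIs were asked of a cell it was 0.42 points (exact permutation p = 0.13, adjusted 0.776), with 4 of 9 *Eed-cKO* embryos above every control. Without *Eed-cKO* embryo 8 the unthinned difference was 1.02 points (adjusted p = 0.0333, exact permutation). In neurons, which should lack the gene, the pooled share was 0.112% (controls) and 0.0964% (*Eed-cKO*), at median depths of 4868.5 and 4438 UMIs.

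In the progenitor-marker clusters the *Mki67* share was 11.1%, 19.1% and 46.7% in controls and 7.69%, 18.4% and 46.3% in *Eed-cKO* (exact permutation p = 0.509), at median depths of 3326 and 3250 UMIs. Thinned cells gave 6.25%, 8.12% and 18.2% in the 4 control embryos with enough cells and 8%, 15.4% and 33.3% in 7 *Eed-cKO* embryos (exact permutation p = 0.133). The difference thus changed sign, in a smaller set of deeper cells and fewer embryos. *Pcna* UMIs were found in 26.7%, 40.9% and 61.5% of cells against 11.8%, 37.5% and 54.5% (exact permutation p = 0.635). Neurons had *Pcna* in 17.7% and 16.2% of cells, so this gene was not a mark of cycling cells alone. All-Hypo *Pcna* shares, 13.5% to 27.0% in controls and 13.2% to 24.4% in *Eed-cKO*, did not differ beyond their spread (exact permutation p = 0.947).

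**Figure D4:**
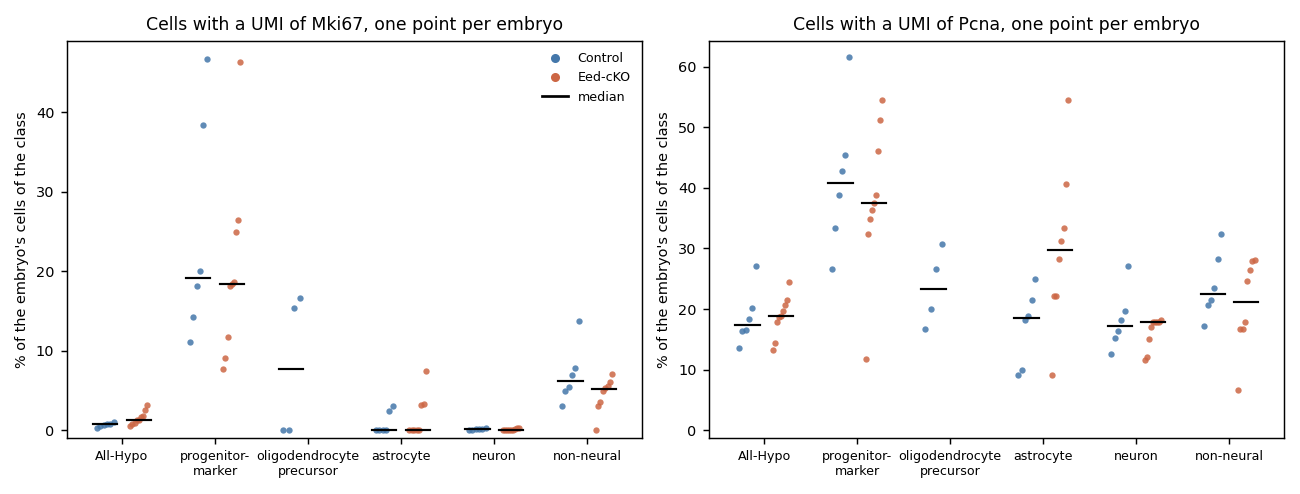
Share (%) of cells with at least 1 UMI of *Mki67* and of *Pcna* in each embryo with at least 10 cells of the class, where points are embryos and bars are medians. The *Mki67* shares of All-Hypo cells reach 1.05% in controls and 3.21% in *Eed-cKO*, and those of the progenitor-marker clusters cover the same range in both genotypes.

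Among oligodendrocyte precursor-like cells, the migratory glial precursors that divide in the late embryo, 69 were from controls and 40 from *Eed-cKO*, and too few embryos had 10 such cells for the planned test. With at least 5 cells an embryo, a limit set after seeing the data, 6 control and 5 *Eed-cKO* embryos could be compared. Of 30 members tested 1 rose, where 0.946% of all 6028 genes rose, and 9 were higher and 0 lower at an unadjusted p under 0.05. It was *Ccnd2*, at 36.7, 93.1 and 357 CPM in controls and at 303, 1047 and 1708 CPM in *Eed-cKO* (log2 fold change 2.76, SE 0.33, edgeR adjusted p = 4.74e-14), so that of the 5 *Eed-cKO* embryos the lowest lay within the control range. *Ccnd1* was at 425, 797 and 1822 CPM against 590, 1252 and 1943 CPM (0.43, adjusted p = 0.545).

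The other members overlapped between genotypes in the precursors. *Top2a* was at 26.4, 183 and 307 CPM against 42.2, 256 and 320 CPM (log2 fold change 0.22). *Rrm2* was at 0, 63.5 and 189 CPM against 169, 209 and 437 CPM (1.62, edgeR adjusted p = 0.0553). Summed G2/M levels were 185, 1155 and 3586 CPM against 216, 1666 and 5385 CPM, and summed S phase levels 755, 1008 and 1665 CPM against 759, 1633 and 3203 CPM. Pooled over embryos, 7 of 69 cells (10.1%) of the controls had an *Mki67* UMI, as did 4 of 40 (10%) in *Eed-cKO*, and the *Pcna* shares were 23.2% and 50%, at median depths of 2628 and 3887.5 UMIs. Nearly all control cells came from cluster 12 and most *Eed-cKO* cells from cluster 13. The pooled G2/M level was 1468 CPM in the 68 control cells of cluster 12. It was 10400 CPM in the 6 *Eed-cKO* cells of cluster 12, which held 357 of the 448 pooled *Eed-cKO* UMIs. In the 34 *Eed-cKO* cells of cluster 13 it was 622 CPM. Most G2/M UMIs of the *Eed-cKO* precursors thus came from 6 cells, and these pooled values carry no test.

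In astrocyte-like cells (6 control and 8 *Eed-cKO* embryos) 2 of the 25 members tested rose, where 6.12% of all 10657 genes rose, and 0 fell (0 lower at an unadjusted p under 0.05, and 0 with DESeq2). *Ccnd1* was at 35.0, 81.4 and 111 CPM in controls and at 507, 738 and 1153 CPM in *Eed-cKO* (log2 fold change 3.25, SE 0.21, edgeR adjusted p = 2.39e-28). *Ccnd2* was at 134, 199 and 229 CPM against 1113, 1425 and 1744 CPM (2.87, SE 0.18, adjusted p = 2.61e-29). The genotypes did not overlap in either cyclin. *Cdk4* lay at 248, 313 and 336 CPM against 215, 302 and 403 CPM (−0.00).

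Genes of the later phases were sparse in astrocyte-like cells. *Top2a* was at 0, 2.29 and 43.0 CPM in controls and 0, 9.74 and 134 CPM in *Eed-cKO* (log2 fold change 1.46, SE 0.62, edgeR adjusted p = 0.138), and without control embryo 1 it passed the test (2.499, adjusted p = 0.0143), as 4 members then did. *Pcna* was at 47.6, 69.3 and 87.5 CPM against 45.6, 94.6 and 351 CPM (0.67, adjusted p = 0.155), and it was found in 9.09%, 18.52% and 25% of cells against 9.09%, 29.8% and 54.5% (exact permutation p = 0.0393, adjusted 0.196). For *Mki67* the numbers were 2 of 220 control cells, against 5 of 215 in *Eed-cKO*. Summed G2/M levels were 25.2, 62.8 and 356 CPM against 58.6, 191 and 546 CPM, and summed S phase levels 167, 307 and 454 CPM against 109, 386 and 1013 CPM. Different clusters held the class in the 2 genotypes, clusters 3 and 9 in controls (119 and 100 cells) and cluster 1 in *Eed-cKO* (196 cells).

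Non-neural cells, in which the Sox1-driven Cre is not expected to act, gave the reverse for *Ccnd1*. *Eed* itself was at 27.9, 41.8 and 48.9 CPM in non-neural cells of controls and at 7.17, 23.9 and 130 CPM in *Eed-cKO*, from 64 and 53 UMIs, with 7 of 9 *Eed-cKO* embryos below every control and 2 above. Of the 41 members tested (6 control and 8 *Eed-cKO* embryos) 0 rose and 2 fell, where 1.23% of all 12396 genes fell, DESeq2 gave the same counts, and at an unadjusted p under 0.05 there were 0 higher and 9 lower. *Ccnd1* was at 229, 354 and 523 CPM in controls and 97.0, 143 and 275 CPM in *Eed-cKO* (log2 fold change −1.16, SE 0.23, edgeR adjusted p = 0.00668), with 6 of 8 *Eed-cKO* embryos below every control. *Mcm6* (chr1:128331590-128359664, minus strand), a helicase subunit, was at 115, 130 and 171 CPM against 49.4, 74.1 and 99.2 CPM with no overlap (−0.78, SE 0.18, adjusted p = 0.0196), a call lost with doublets removed (−0.67, adjusted p = 0.0529). Summed G2/M levels were 663, 881 and 1456 CPM against 219, 554 and 943 CPM, and summed S phase levels 521, 539 and 698 CPM against 364, 428 and 584 CPM, with 5 *Eed-cKO* embryos below all controls in each. *Mki67* was found in 3.08%, 6.15% and 13.8% of cells against 0%, 5.15% and 7.02% (exact permutation p = 0.153).

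The makeup of the non-neural cells differed between genotypes. Endothelial cells were 33.8%, 36.7% and 68.8% of them in control embryos and 17.9%, 24.6% and 44.4% in *Eed-cKO*, and vascular leptomeningeal cells 0%, 25.4% and 43.7% against 44.4%, 52.6% and 69.9%. Their part in the lower sums was not tested, but each type could be read alone. In endothelial cells (6 against 6 embryos) *Ccnd1* was at 440, 567.7 and 1097 CPM against 223, 248 and 641 CPM (log2 fold change −1.06, edgeR adjusted p = 0.0799), and 1 of 39 members fell, *Tpx2*, a spindle assembly factor (−2.24, SE 0.48, adjusted p = 0.0395), where 0.175% of all 9737 genes fell, while 15 members were lower and 1 higher at an unadjusted p under 0.05. *Mcm6* did not pass there (−0.84, adjusted p = 0.322). In vascular leptomeningeal cells pooled *Ccnd1* levels were 45.9 and 51.6 CPM and pooled *Mcm6* levels 62.6 and 67.3 CPM. In pericytes (58 and 43 cells) pooled *Ccnd1* was at 42.3 and 88.8 CPM and *Mcm6* at 118 and 161 CPM, and in microglia (51 and 46 cells) at 348 and 394 CPM for *Ccnd1* and 169 and 109 CPM for *Mcm6*. Pooled *Ccnd1* was therefore lower in *Eed-cKO* in endothelial cells and not in the other 3 types. The pooled G2/M sum was 1149 and 483 CPM in endothelial cells, 786 and 1905 CPM in pericytes, 215 and 428 CPM in leptomeningeal cells and 1472 and 1337 CPM in microglia. These pooled values carry no test.

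The genotype effects of neural and non-neural cells were then compared directly, within embryos. The effect on *Ccnd1* was higher in the progenitor-marker clusters than in non-neural cells by 2.93 on the log2 scale (SE 0.28, edgeR interaction, adjusted p = 1.22e-15), and this was the 1 member of 41 that passed, where 0.742% of all genes were higher. In astrocyte-like against non-neural cells 2 of 41 members passed, where 1.86% of all genes were higher, *Ccnd1* with a difference of 4.37 (SE 0.29, adjusted p = 3.11e-19) and *Ccnd2* with 2.63 (SE 0.31, adjusted p = 1.19e-09). These differences include the lower *Ccnd1* of the non-neural cells in *Eed-cKO*. The part of the differing makeup of the non-neural cells in them was not tested.

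**Figure D5:**
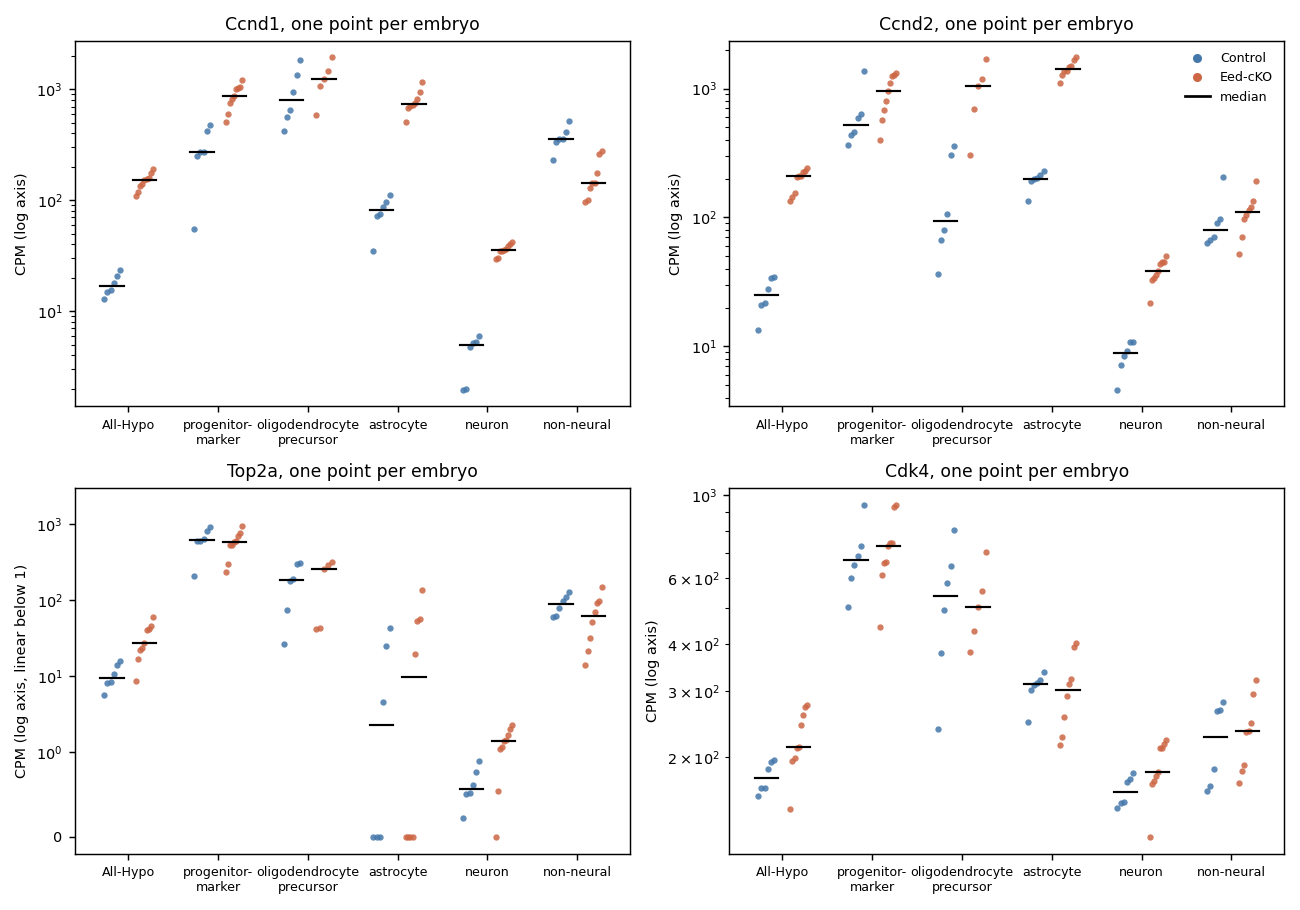
Level (CPM, log axis, linear below 1 for *Top2a*) of *Ccnd1*, *Ccnd2*, *Top2a* and *Cdk4* in each embryo, by cell class and genotype, where points are embryos and bars are medians. *Ccnd1* of *Eed-cKO* embryos lies above every control in All-Hypo, progenitor-marker, astrocyte-like and neuronal cells, and mostly below the controls in non-neural cells.

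In neurons, which made up most of the cells, 6 of 38 members tested rose, where 7.3% of all 15156 genes rose, and 0 fell (2 lower at an unadjusted p under 0.05, and 0 with DESeq2). *Ccnd1* was at 1.95, 4.91 and 6.01 CPM in controls and 29.7, 35.5 and 41.9 CPM in *Eed-cKO* (log2 fold change 3.11, SE 0.18, edgeR adjusted p = 1.48e-13), and *Ccnd2* at 4.61, 8.84 and 10.8 CPM against 21.6, 38.4 and 49.96 CPM (2.21, adjusted p = 1.34e-11), both without overlap. *Mcm7* was at 19.3, 22.2 and 29.99 CPM against 21.9, 28.4 and 36.3 CPM (0.40, adjusted p = 0.0222). The count of 6 was 2 without control embryo 3, 3 with doublets removed, 11 with cell cycle genes kept in the clustering and 14 with a wider set kept out of it, and the *Mcm7* call was lost in 3 of the 15 fits that left out an embryo.

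The 3 G2/M genes that passed in neurons did so at very low levels. *Ccnb1* was counted 4 times in control and 17 times in *Eed-cKO* neurons (log2 fold change 2.18, SE 0.70, edgeR adjusted p = 0.0359), and *Top2a* was at 0.224, 0.562 and 0.900 CPM against 0, 1.40 and 2.25 CPM (1.16, adjusted p = 0.0495). *Cenpa*, the centromeric histone, was at 1.42, 1.97 and 3.39 CPM against 0, 3.25 and 6.01 CPM (0.88, adjusted p = 0.0399). Neurons with UMIs of at least 2 G2/M genes, 101 in controls and 84 in *Eed-cKO*, had median depths of 8593 and 8134 UMIs, against 4868.5 and 4438 over all neurons, and these 3 calls were lost with sex as a covariate. Summed G2/M levels in neurons were 29.7, 35.1 and 39.5 CPM in controls and 30.7, 41.03 and 49.96 CPM in *Eed-cKO*.

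Other genes of the pathway, 94 in the table, included the inhibitors of cyclin-dependent kinases. In All-Hypo cells 42 of 86 tested rose, where 15.3% of all genes rose. Against 12.5% of all genes, 2 of the 86 fell, the primase subunit gene *Prim1* (−0.30, edgeR adjusted p = 0.0244) and *Ccnh* (−0.23, adjusted p = 0.0182). *Hmgb2*, a chromatin protein abundant in dividing cells, rose by 1.23 (adjusted p = 1.89e-05) and *Foxm1*, an activator of G2/M genes, by 0.94 (adjusted p = 0.0385). *Cdkn2b*, which encodes the Cdk4 and Cdk6 inhibitor p15, was at 0, 0.177 and 0.696 CPM in controls and 9.72, 17.2 and 21.2 CPM in *Eed-cKO*. *Cdkn2a*, which encodes p16 and p19, had no UMI in any control embryo and lay at 4.08, 11.04 and 13.5 CPM in *Eed-cKO*. Both passed the filter on level only through the *Eed-cKO* embryos and could only have been called higher.

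In the progenitor-marker clusters 4 of 92 of these genes rose, where 0.939% of all genes rose, and 0 fell (2 lower at an unadjusted p under 0.05, and 0 with DESeq2). *Cdkn1a*, the p53-responsive inhibitor p21, was at 0, 0 and 41.7 CPM in controls and 0, 149 and 207 CPM in *Eed-cKO* (log2 fold change 3.89, edgeR adjusted p = 5.64e-07). *Ccng1*, another p53-responsive gene, was at 25.5, 54.8 and 83.8 CPM against 0, 194 and 245 CPM (1.75, adjusted p = 0.00198). *Cdkn1c*, the inhibitor p57, was at 136, 222 and 728 CPM against 257, 591 and 1095 CPM (1.15, adjusted p = 0.00179), and *Cdkn2a* at 0 in all controls against 0, 31.6 and 68.9 CPM (adjusted p = 0.00813), where 3 UMIs in the pooled control cells would be 9.03 CPM. *Cdkn2a* passed the filter through *Eed-cKO* embryos alone, so its call, counted among the 4, could only have been in this direction.

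The inhibitors were also found in the cells that expressed G2/M genes. Among progenitor-marker cells with UMIs of at least 2 G2/M genes, 41 in controls and 109 in *Eed-cKO*, with median depths of 4652 and 4637 UMIs, *Cdkn1a* was detected in 4.88% and 29.4% and *Ccnd1* in 39.0% and 68.8%. *Cdkn2a* was detected in 0 of 41 cells and in 20.2%, where a count of 0 allows up to 7.32% of control cells to have a UMI, which is no limit on cells that express the gene. In neurons with no G2/M gene, at median depths of 4580.5 and 4201 UMIs, the share with *Cdkn1a* was 21.3% in controls and 21.1% in *Eed-cKO*. That was above the 4.88% of the control progenitor-marker cells with at least 2 G2/M genes. In control progenitor-marker cells with no G2/M gene it was 0 of 37, which allows up to 8.11%, at a median depth of 2609 UMIs. Of the neurons with no G2/M gene, 1.43% and 12.3% had *Ccnd1*. *Cdkn2a* was found in 0 of 5328 control neurons, which allows up to 0.0563% with a UMI, and in 1.696% of the *Eed-cKO* neurons. These are shares of pooled cells and carry no test.

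In astrocyte-like cells 9 of 64 other pathway genes rose, where 6.12% of all genes rose and 4.5% fell (*Ccng1*, *Cdc25b*, *Cdca3*, *Cdkn1a*, *Cdkn2a*, *Cdkn2b*, *Cdkn2c*, *Ckap2* and *Tubb4b*) and *Cdkn1b*, which encodes p27, fell by 0.87 on the log2 scale (edgeR adjusted p = 0.00729). In non-neural cells 1 of 91 passed, *Cdkn2b*, which was lower, as were 1.23% of all genes (−2.30, adjusted p = 0.00438). In neurons 7 of 92 rose, where 7.3% of all genes rose and 6.32% fell (*Cdca3*, *Cdkn1b*, *Cdkn2a*, *Cdkn2b*, *Cdkn2c*, *E2f2* and *Trp53*) and *Pttg1*, the separase inhibitor securin, fell by 0.56. *Cdkn2a*, with no control UMI, could only have been called higher in astrocyte-like cells and in neurons. In the oligodendrocyte precursors 0 of 56 passed edgeR's test, with 7 higher at an unadjusted p under 0.05, and DESeq2 was not run.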

How the data were processed

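The samples were 48 libraries of dissociated hypothalamus, from 6 control and 9 *Eed-cKO* embryos at E18.5, prepared with droplet capture of 3′ ends. The authors aligned the reads with STAR 2.5.2b to mm10, used SAMtools 1.3 for barcodes, removed shallow cells and deposited raw UMI counts per gene and cell. The deposited counts were used as they are, and a library sheet was read for sex and genotype codes only. The members and gene lists were chosen with earlier results of these data known. Values were named by rule, as the members called in any genotype comparison with *Mki67*, *Top2a*, *Pcna*, *Ccnd1*, *Ccnd2* and *Cdk4*, and the other pathway genes that were called.

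Counts were scaled to 10000 a cell, and 2000 variable genes, without the 135 cell cycle genes present, gave 30 components, 15 neighbours and Leiden clusters at resolution 1 (scanpy 1.11.5, leidenalg 0.10.2). Glial and progenitor clusters were clustered a second time. A cluster took a name from at least 3 markers raised 2-fold in at least 10% of its cells. In the second clustering the mean log2 fold over the markers of the type also had to reach 1.5, and others stayed unnamed. Unnamed cluster 0 (246 cells) had 3 progenitor markers raised, *Nes*, *Hes5* and *Fabp7*, but a mean of 0.82 over that list. Neurons were named against the cells of clusters already named. Doublets were left in, and an alternative removed the 6% of cells a library most like simulated pairs (848 cells). UMIs were summed per embryo and class (at least 10 cells). Genes with at least 15 UMIs, at least 2 of them in 1 embryo, and in All-Hypo cells a median log2 CPM of at least 1.5, were tested with edgeR 4.0.16 (TMM, glmQLFit, glmQLFTest, genotype only), with adjusted p under 0.05 as a call. Differences between classes used an interaction with the embryo as a block. CPM are counts per 1e6 of the TMM-scaled total, except that the *Eed* levels, the levels of pooled cells and the floors use the unscaled total. Shares were tested by exact two-sided permutation over embryos, 5005 splits of 6 against 9, and Clopper-Pearson intervals of 95% and floors of 3 counts cover counting error only. The libraries of an embryo were summed, so p-values measure the spread between embryos. Alternatives used DESeq2 1.42.0, limma 3.58.1, library size alone, a total of at least 40 UMIs, sex, litters or libraries as samples, other clusterings and single embryos left out. Gene positions are from GENCODE on GRCm38, promoters from RefSeq GRCm38.p6. The scripts were tested on simulated data.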

Additional observations from a re-analysis of the deposited data

Results flagged for a closer look

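Of 130 groups of 4 to 9 embryos examined for an embryo far from the rest (groups of a class, genotype and measure), 14 held one (10.8%), where chance gives about 1 in 20. In the progenitor-marker clusters these were the *Mki67* share of 1 *Eed-cKO* embryo (46.3% of cells), the *Pcna* level of 1 *Eed-cKO* embryo (59.3 CPM, the lowest) and the *Ccnd2* level of control embryo 2 (1374 CPM). In oligodendrocyte precursor-like cells it was an *Mki67* level of 233 CPM in *Eed-cKO*. In astrocyte-like cells the *Eed-cKO* group had single embryos with an *Mki67* share of 7.41% and level of 29.1 CPM, a *Top2a* level of 134 CPM and a *Pcna* level of 351 CPM, and the control group one with an *Mki67* level of 18.4 CPM. In non-neural cells, control embryos stood out for the summed G1 and G1/S level (1055 CPM), *Mki67* (112 CPM) and *Ccnd2* (207 CPM). In neurons, 1 control embryo had an *Mki67* share of 0.324% and 1 a level of 0.671 CPM.

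The effects of genotype on 2 members differed between classes in edgeR's interaction test. The effect on *Ccnd1* in the progenitor-marker clusters exceeded that in non-neural cells by 2.93 on the log2 scale. In astrocyte-like against non-neural cells the differences were 4.37 for *Ccnd1* and 2.63 for *Ccnd2*.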

How the results depend on the processing

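Of the counts, shares and sums under other settings than single embryos left out, 91 kept their value or side of the threshold, 11 moved, 3 changed direction and 1 passed the test only there. Of the fold changes of single genes, 504 kept direction and side, 39 lost the call, 18 changed sign and 1 gained a call. The members called in All-Hypo cells were 32 with DESeq2 and 30 of 40 with a total of at least 40 UMIs, but 19 without the progenitor-marker clusters and 16 without the unnamed clusters too, where fewer cells remain. The All-Hypo difference of median summed S phase levels was 26.5 CPM without the progenitor-marker clusters. With a wider set of genes kept out of clustering, 2 members were called in progenitor-marker clusters, 6 in astrocyte-like cells and 14 in neurons. With cell cycle genes kept in clustering, 11 were called in neurons and 1 in non-neural cells. With doublets removed it was 3 in neurons and 1 in non-neural cells, and endothelial cells alone gave 1. Apart from these constructions, the cause was not tested.

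Thinning gave a difference in *Mki67* share of 0.735 points in All-Hypo cells, and turned the progenitor-marker differences to 7.93 points for *Mki67* and 2.08 for *Pcna*. With at least 2 UMIs the astrocyte-like *Mki67* difference was −0.042 points. Fold changes near 0 changed sign on the log2 scale. In progenitor-marker clusters *Mki67* was −0.13 with cell cycle genes kept in clustering and −0.14 with the wider set, *Top2a* 0.47 without cluster 8 and 0.015 without cluster 15, and *Pcna* −0.016 with DESeq2, −0.0059 by library size and −0.24 with cell cycle genes kept. *Cdk4* was 0.018, 0.0037 and 0.026 in astrocyte-like cells with DESeq2, library size and at least 40 UMIs, −0.28 in endothelial cells, and −0.038 by library size in the progenitor-marker against non-neural difference. Neuronal *Pcna* was 0.012 (DESeq2), 0.039 (library size), 0.0075 (at least 40 UMIs), 0.026 (sex added), 0.041 (cell cycle genes kept) and 0.021 (wider set).

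With single embryos left out, counts of called members were 25 to 31 in All-Hypo cells (25 without *Eed-cKO* embryo 5), 1 to 2 in progenitor-marker clusters, 2 to 4 in astrocyte-like cells, 2 in non-neural cells and 2 to 7 in neurons (2 without control embryo 3). There the neuronal calls of *Top2a*, *Cenpa*, *Ccnb1* and *Mcm7* were lost in 12, 8, 7 and 3 of 15 fits. Log2 fold changes that crossed 0 were −0.075 to 0.53 for *Mki67*, −0.25 to 0.071 for *Top2a* and −0.017 to 0.22 for *Pcna* in progenitor-marker clusters, −0.093 to 0.086 for *Cdk4* in astrocyte-like cells, −0.028 to 0.51 for *Ccnd2* in non-neural cells and −0.053 to 0.073 for *Pcna* in neurons. Differences in *Mki67* share were 0.692 to 1.02 points in All-Hypo, −7.89 to −0.24 in progenitor-marker, 0.0207 to 1.26 in astrocyte-like, −3.34 to −1.20 in non-neural cells and −0.067 to 0.0037 in neurons, and in *Pcna* share −0.867 to 1.84, −6.24 to 0.733, 9.63 to 16.1, −4.67 to −1.33 and −3.16 to −0.271. Differences of median summed G2/M levels were 102 to 128 CPM in All-Hypo, −1326 to −477 in progenitor-marker, −175 to 1248 in oligodendrocyte precursor-like, 106 to 151 in astrocyte-like, −511 to −144 in non-neural cells and 2.61 to 7.07 in neurons, and of S phase levels 55.9 to 74.2, −416 to −110, 415 to 959, 11.1 to 147, −137 to −86.6 and 3.802 to 9.85.

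No paired analysis was possible because no litter held both genotypes and the replicate numbers are accession order only. The planned fits of oligodendrocyte precursor-like cells were not run, since too few embryos had 10 such cells. The smaller classes hold few UMIs per embryo, which limits their G2/M genes most.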

Other observations

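Ciliated ependymal-like cells (cluster 10, 41 control and 48 *Eed-cKO* cells), which build many centrioles without dividing, held part of the G2/M list. *Top2a* was detected in 34.8% of these 89 cells, *Cdk1* in 32.6% and *Cdc20* in 31.5%, but *Mki67* in 5.62% and *Ccna2* in 3.37%. In the 76 cells of cluster 11 the shares were 89.5%, 85.5%, 52.6%, 67.1% and 81.6%. Pooled G2/M levels in the ciliated cells were 866 CPM in controls and 1101 CPM in *Eed-cKO*, so that part of the G2/M sum of All-Hypo cells lay in cells with few *Mki67* UMIs. These are pooled cells and carry no test.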
